A study of Caenorhabditis elegans with 30 samples.

Results

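The comparison described here sets Caenorhabditis elegans libraries labelled with the perturbation M04C9.5 directly against libraries labelled with the perturbation ZK795.1. The members were chosen by label alone, 3 libraries per group, which makes 6 of the 30 libraries of the series. M04C9.5 is the sequence name of dyf-5, and ZK795.1 is the sequence name of ipmk-1. All 6 libraries were made from whole hermaphrodites of the wild-type strain N2 at an age of 5 days, and no other allele, transgene or agent is named for them. A further 3 libraries of the same title prefix, labelled L4440 after the empty RNAi feeding vector, are given beside the results but carry no weight in the contrast. RNA was sequenced from whole animals, so in every result below fewer cells of a type and less RNA per cell cannot be told apart. Separate cultures are not stated for the 3 replicates, so p-values measure only the spread between these samples, which may be technical.

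In feeding RNAi, worms eat bacteria that make double-stranded RNA, and the matching messenger RNA is degraded in many tissues. DYF-5 is a kinase of the MAK/RCK family that acts in ciliated sensory neurons, where it controls the length of the cilium and the transport of material along it. IPMK-1 is the inositol polyphosphate multikinase, which adds phosphate groups to soluble inositol phosphates derived from membrane phosphoinositides. An adult hermaphrodite is a self-fertile animal whose intestine makes yolk protein for the oocytes and whose uterus holds developing embryos, so RNA from a whole adult includes RNA of the embryos inside it.

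The 6 libraries held 35160282 to 44987307 counts in genes, and scaling factors over the 15 libraries fitted together ran from 0.923 to 1.13. The biological coefficient of variation in that fit was 5.42%. Counts of 2 libraries of a group were compared gene by gene, as a chi-square per gene. It was 5.22 to 5.78 between M04C9.5-labelled libraries, all of which differed by more than sampling noise. Between the ZK795.1 libraries it was 6.15 for replicates 1 and 2, and 13.5 and 16.4 for the pairs with replicate 3, so replicate 3 stands apart from the other two. Results that rest on this library are given with and without it. The M04C9.5-labelled libraries are recorded on flow cell lanes 1, 4 and 8 and the ZK795.1 libraries on lanes 2, 3 and 6. No lane held both groups, and a fit with lane as a term was used in place of values within a lane. Of the 15 libraries fitted, M04C9.5 replicate 2 was alone on lane 4, so the lane term leaves it no weight in the contrast. The term also leaves less information on the spread. A call lost in that fit therefore does not by itself show an effect of lane.

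**Figure D1:**
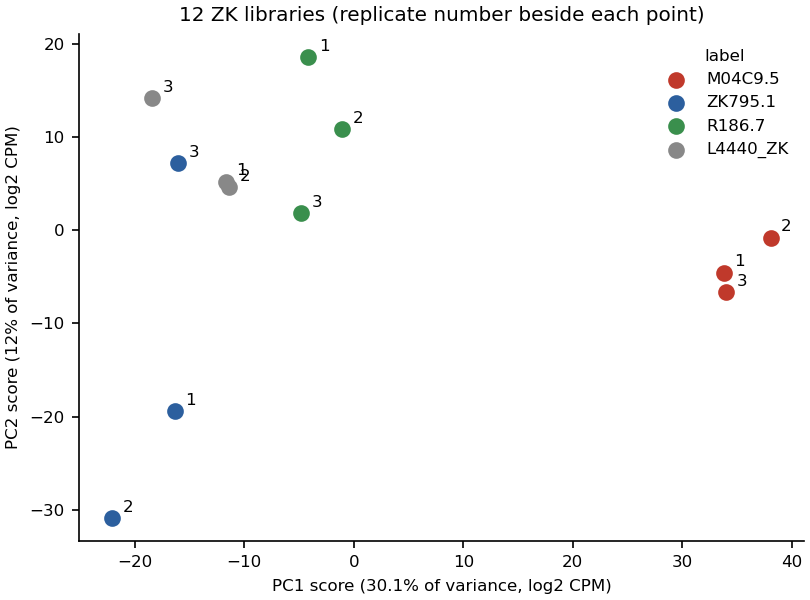
Principal components of log2 CPM (counts per 1000000 of the scaled library size) in 12 libraries of the ZK title prefix. PC1 (30.1% of variance) is on the x axis and PC2 (12% of variance) on the y axis, colours give the label and numbers the replicate. The M04C9.5-labelled libraries lie at 33.79 to 38.1 on PC1, and the ZK795.1 libraries at -22.06 to -16.06.

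On the first principal component the M04C9.5-labelled libraries lay together at 33.79, 38.1 and 34.05, against -16.32, -22.06 and -16.06 for the ZK795.1 libraries. The libraries of L4440 and of R186.7, another gene targeted in the series, shared the negative side of this axis with ZK795.1. On the second component ZK795.1 replicates 1 and 2 lay at -19.41 and -30.86 and replicate 3 at 7.14, close to the L4440 libraries.

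The transcript named by each label was read first, because RNAi against a gene lowers its messenger RNA. dyf-5 (WBGene00001121, protein coding) lies on chromosome I at 9359067 to 9364238 of the build WBcel235, on the plus strand. It had 231, 371 and 295 counts in the libraries labelled M04C9.5, against 15, 12 and 16 in the ZK795.1 libraries and 7, 9 and 15 in the L4440 libraries. Every M04C9.5-labelled library was far above every other one, the opposite of what the label names. The log2 fold change over ZK795.1 was 4.30 ± 0.20 (SE; edgeR adjusted p = 2.11e-16), the largest rise among genes that averaged at least 1 CPM over the 6 libraries and whose groups did not overlap. For that reason these are called the libraries labelled M04C9.5 throughout, and no direction below is tied to a loss of dyf-5.

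ipmk-1 (WBGene00014081, protein coding) lies on chromosome IV at 12548124 to 12554681, also on the plus strand. It had 293, 342 and 332 counts in the M04C9.5-labelled libraries, against 156, 207 and 206 in the ZK795.1 libraries and 332, 222 and 325 in the L4440 libraries. In scaled units these were 7.66, 7.97 and 8.31 CPM against 3.93, 6.22 and 4.84 CPM, with 8.46, 6.66 and 7.73 CPM in L4440. The ZK795.1 libraries were the low ones, without overlap with either of the other groups, which is the direction its label names. ipmk-1 was higher in the M04C9.5-labelled libraries by 0.69 ± 0.11 on the log2 scale (adjusted p = 2.31e-05), a fold of 1.61.

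Genes beside the targets were read in the same way. ppfr-1, a regulatory subunit gene of protein phosphatase 4, overlaps dyf-5 on the other strand. Because the library kit does not mark strand, reads of the overlap cannot be told apart. It had 213 ± 8.06 CPM in the M04C9.5-labelled libraries and 210.3 ± 18.1 in the ZK795.1 libraries, a difference of 0.02 ± 0.06 (adjusted p = 0.866). The neighbour M04C9.4 was lower (-0.50 ± 0.18, adjusted p = 0.0389), but the call was lost without M04C9.5 replicate 1 or 2 (adjusted p = 0.0636 and 0.172), without ZK795.1 replicate 1 or 3 (adjusted p = 0.0915 and 0.161), and with lane as a term, where the value was -0.07. The transfer RNA ligase gene rtcb-1 had 0.12 ± 0.05 (adjusted p = 0.118), and it passed with library totals (0.22, adjusted p = 0.00283).

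ham-1, a gene needed for asymmetric divisions of neuroblasts, lies upstream of ipmk-1 on the same strand, with a gap of 2386 bp between the 2 genes. Its level was 22.2, 28.2 and 23.7 CPM in the M04C9.5-labelled libraries, against 10.2, 7.51 and 11.5 CPM in the ZK795.1 libraries and 9.65, 9.09 and 7.45 CPM in the L4440 libraries. The M04C9.5-labelled libraries stood above all 6 others, and ZK795.1 overlapped L4440. The log2 fold change was 1.34 ± 0.13 (adjusted p = 6.94e-07). ZK795.2, 2390 bp from ipmk-1, had 0.63 ± 0.37 (adjusted p = 0.244).

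Of 16495 genes tested, 4056 differed between the M04C9.5-labelled and the ZK795.1 libraries at an adjusted p under 0.05, which is 24.6% of the genes. There were 1869 higher (11.3%) and 2187 lower (13.3%), and the counts of each gene list are read against these shares. In 3922 of the 4056 the 3 libraries of one group all lay on one side of the other 3, as they did in 37.6% of all genes tested. Most differences were small. The median size among genes past the threshold was 0.45 on the log2 scale, and 485 rises (2.94%) and 225 falls (1.36%) exceeded 2-fold. Rises over 4-fold numbered 60 and falls over 4-fold 27.

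The balance of the 2 directions depended on how libraries were scaled. With library totals in place of trimmed means the median over all genes moved by 0.11 on the log2 scale, and 76% of calls were higher (3877 higher, 1221 lower), against 46.1% here. With flow cell lane as a term in the model 1541 genes passed, 697 higher and 844 lower. Without ZK795.1 replicate 3 the count was 4284, with 2330 higher and 1954 lower. The same libraries set against L4440 gave 3259 genes (19.8%) for the M04C9.5 label and 328 genes (1.99%) for ZK795.1. These 2 comparisons share the L4440 libraries, and how far they differ was not tested.

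**Figure D2:**
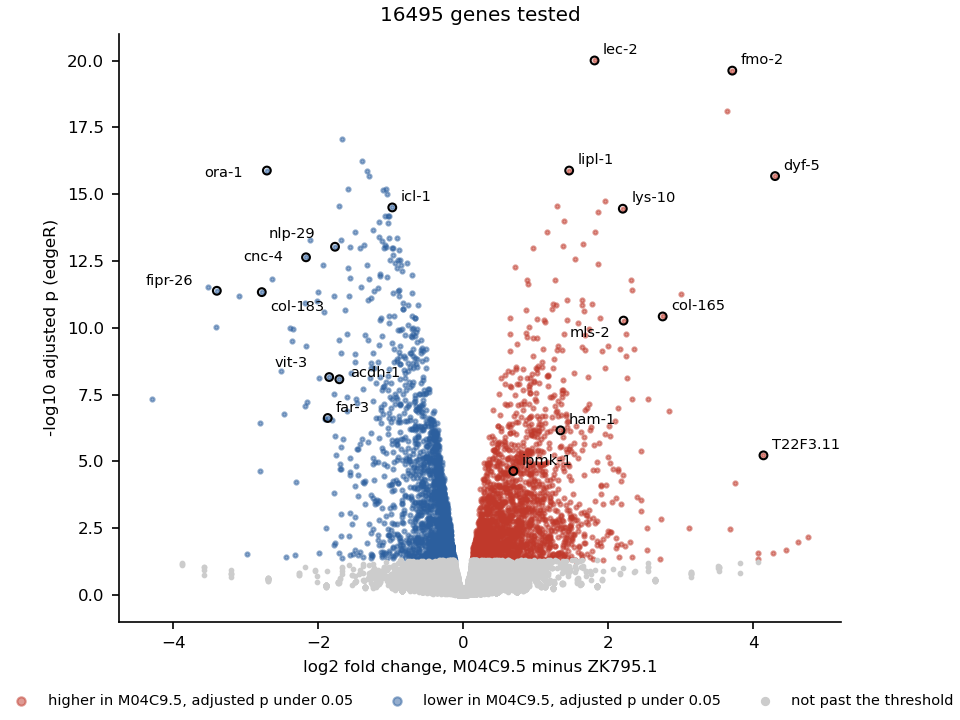
Each point is 1 of 16495 genes, with the log2 fold change (M04C9.5-labelled minus ZK795.1) on the x axis and the negative log10 of the edgeR adjusted p on the y axis. Red points are the 1869 genes higher and blue points the 2187 genes lower at an adjusted p under 0.05, and circled genes are named in the text.

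Among the 15 largest rises were enzymes, cuticle components and a developmental regulator. fmo-2 encodes a flavin-containing monooxygenase whose level in worms rises with low oxygen and with dietary restriction. It had 25.4, 21.5 and 27.3 CPM in the M04C9.5-labelled libraries, against 1.81, 1.95 and 1.90 CPM in the ZK795.1 libraries and 2.22, 3.09 and 2.17 CPM in the L4440 libraries. The groups were far apart, and ZK795.1 and L4440 lay side by side. The rise was 3.71 ± 0.12 (adjusted p = 2.38e-20), or 13.1-fold. F20G2.1 had 9.70, 9.84 and 8.48 CPM, against 0.781, 0.781 and 0.681 CPM in ZK795.1 (3.64 ± 0.14, adjusted p = 8.04e-19).

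mls-2, a homeobox gene of the postembryonic mesoderm lineage and of head glia, had 10.9, 14.0 and 14.6 CPM in the M04C9.5-labelled libraries, against 2.92, 2.10 and 3.41 CPM in ZK795.1 and 2.77 ± 0.392 CPM in L4440. Again the M04C9.5-labelled libraries were high and the other groups overlapped (2.21 ± 0.15, adjusted p = 5.41e-11). The cuticle collagen genes col-165 (2.75 ± 0.22) and col-74 (2.26 ± 0.24) and the cuticlin gene cut-3 (2.16 ± 0.20) rose. So did the invertebrate-type lysozyme gene ilys-2 (2.25 ± 0.21) and the F-box gene fbxa-24 (2.31 ± 0.16). F14F9.6 (3.00 ± 0.22), C23G10.11 (2.35 ± 0.20), Y105C5B.3 (2.32 ± 0.17), Y65B4BR.1 (2.25 ± 0.20) and T22F3.11 (4.14 ± 0.40) complete the list apart from dyf-5 and lys-10. T22F3.11 varied most, with 8.58, 4.08 and 5.96 CPM in the M04C9.5-labelled libraries, against 0.328, 0.45 and 0.282 CPM in ZK795.1.

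The 15 largest falls were led by small secreted peptides and genes with no assigned name. fipr-26, of the fungus-induced-related peptide family, had 0.209, 0.187 and 0.3 CPM in the M04C9.5-labelled libraries, against 2.65, 2.04 and 2.70 CPM in ZK795.1 and 1.91, 2.04 and 1.33 CPM in L4440 (-3.40 ± 0.25, adjusted p = 4.14e-12). Its relative fipr-1 fell by 3.10 ± 0.23, with L4440 between the other groups at 0.79, 0.69 and 0.642 CPM. ora-1, named after an antigen of the parasite Onchocerca, fell to 2.17, 2.24 and 2.08 CPM in the M04C9.5-labelled libraries, against 13.3, 14.1 and 15.0 CPM in ZK795.1 and 9.07, 10.6 and 8.26 CPM in L4440. No library of one group reached another group, and the log2 fold change was -2.71 ± 0.12 (adjusted p = 1.31e-16).

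F18E3.12 (-3.52 ± 0.25), F18E3.11 (-2.64 ± 0.19) and F18E3.13 (-2.35 ± 0.20), whose names place them on the same cosmid, all fell. The collagen gene col-183 had -2.78 ± 0.17, the ammonium transporter gene amt-1 -2.17 ± 0.20, and the chemoreceptor family gene str-144 -2.36 ± 0.21. pud-3, named for a protein that is more abundant in daf-2 insulin receptor mutants, fell to 14.3, 9.56 and 8.81 CPM in the M04C9.5-labelled libraries, against 46.9, 66.1 and 48.7 CPM in ZK795.1 (-2.31 ± 0.26). srlf-34 (-2.81 ± 0.19), H39E23.3 (-3.41 ± 0.29), F57H12.6 (-2.81 ± 0.31), Y9C9A.16 (-2.39 ± 0.20) and Y110A2AL.9 (-2.19 ± 0.17) make up the rest.

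The smallest p-values among the other genes belonged to transcripts with tight replicates. lec-2, a galectin gene, had 316, 288 and 311 CPM in the M04C9.5-labelled libraries, against 83.2, 93.4 and 83.9 CPM in ZK795.1 and 91.1, 99.3 and 97.6 CPM in L4440. Its rise of 1.81 ± 0.06 had the smallest p of the whole table (adjusted p = 9.92e-21). The lysosomal lipase gene lipl-1, which is raised by fasting in worms, had 45.7, 40.5 and 44.1 CPM, against 15.8, 15.6 and 15.9 CPM in ZK795.1 and 8.56, 8.28 and 9.54 CPM in L4440, an order in which all 3 groups were separate (1.46 ± 0.07). The remaining genes fell. They were the P-type ATPase gene catp-3 (-1.40 ± 0.06), the serine carboxypeptidase gene ctsa-1.2 (-1.30 ± 0.06), the glutamine synthetase gene gln-3 (-1.05 ± 0.05), eppl-1 (-1.33 ± 0.06), col-122 (-1.07 ± 0.05), D1086.3 (-1.68 ± 0.07), C05D12.3 (-1.59 ± 0.08) and F55H12.4 (-1.11 ± 0.06).

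**Figure D3:**
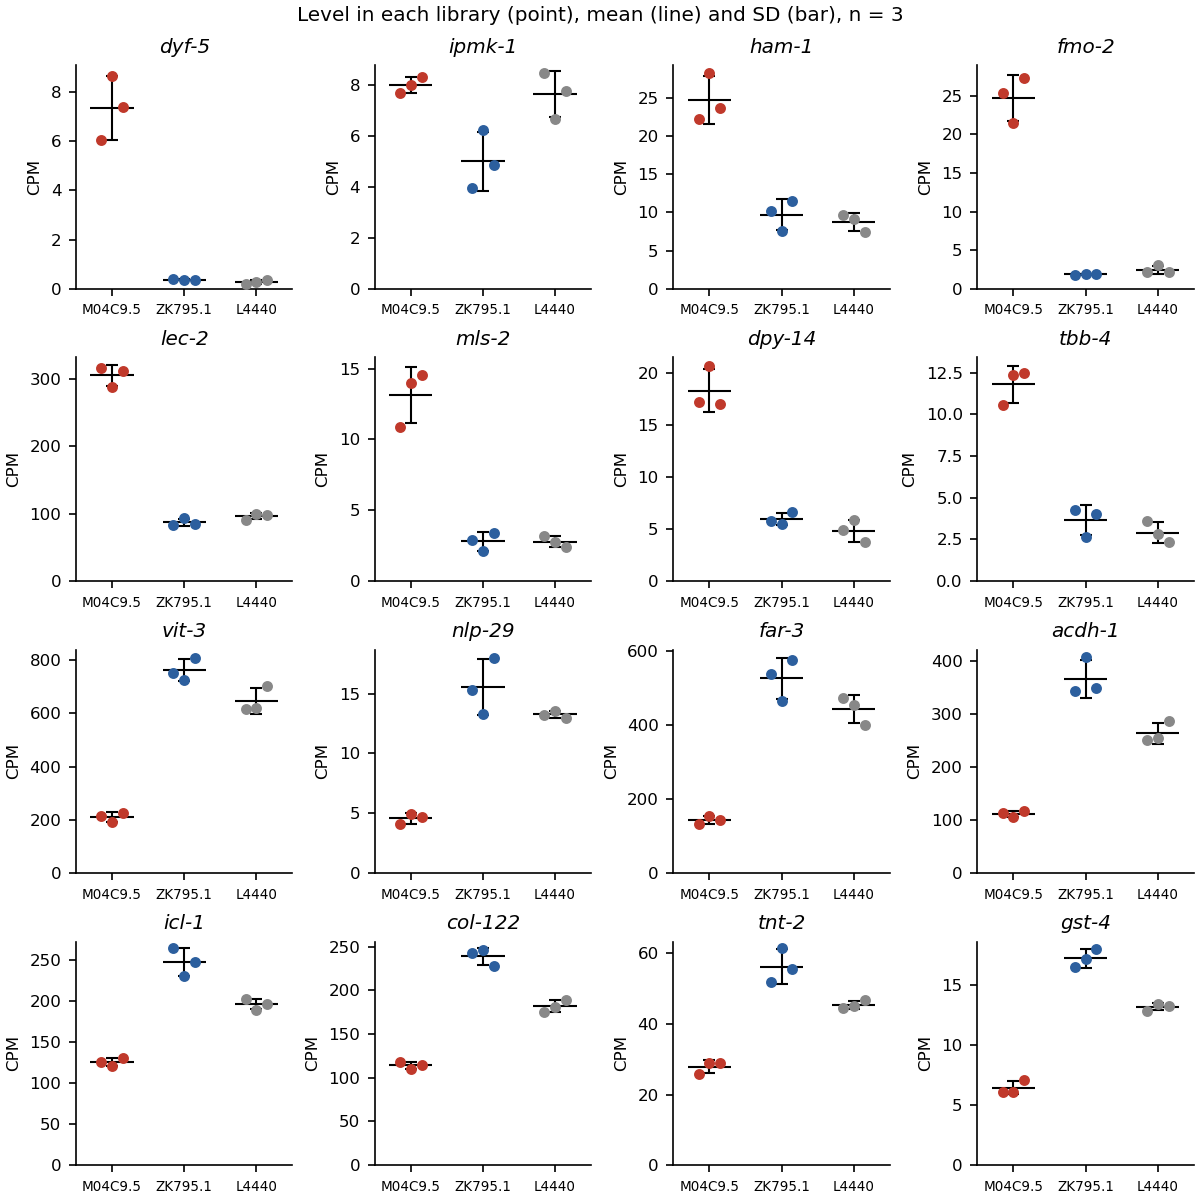
Level in CPM (y axis, from 0) of 16 named genes in each library, with M04C9.5-labelled libraries in red, ZK795.1 in blue and L4440 in grey; lines are means and bars SD, n = 3 libraries each. dyf-5, ham-1, fmo-2, lec-2, mls-2, dpy-14 and tbb-4 were high in the M04C9.5-labelled libraries alone, and the 8 genes from vit-3 to gst-4 were lowest there.

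All 6 yolk protein (vitellogenin) genes were lower in the M04C9.5-labelled libraries. These proteins are made in the adult intestine, secreted, and taken up by oocytes through the receptor RME-2. The summed level of the 6 genes was 22711, 18813 and 23416 CPM in the M04C9.5-labelled libraries, against 41299, 39688 and 47032 CPM in ZK795.1 and 40698, 39909 and 43582 CPM in L4440. Every M04C9.5-labelled library held less than any of the other 6. As a share of all counts this was 2.29%, 1.91% and 2.34%, against 3.81%, 3.76% and 4.45% in ZK795.1.

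vit-3 was the yolk gene with the largest fall, at 215, 191 and 227 CPM in the M04C9.5-labelled libraries, against 753, 725 and 809 CPM in ZK795.1 (-1.85 ± 0.11, adjusted p = 7.01e-09). vit-4 had -1.69 ± 0.10, vit-5 -1.14 ± 0.11, vit-6 -1.04 ± 0.12, vit-1 -0.97 ± 0.12 and vit-2 -0.66 ± 0.10. Several yolk genes are near-identical in sequence and reads may be shared among them, so the division between vit-3, vit-4 and vit-5 is uncertain. All 6 calls held in every other fit tried. Of 11 tested genes of yolk uptake and control, 3 rose and 2 fell. The falls were the yolk receptor gene rme-2 itself (-0.27 ± 0.06) and the endocytic recycling gene rme-1 (-0.20 ± 0.05), and the rises were pqm-1 (0.43 ± 0.06), which encodes a zinc finger factor of the intestine, the LDL-receptor-related gene lrp-2 (0.35 ± 0.06) and the kinase gene sgk-1 (0.34 ± 0.07). With lane as a term the falls of rme-2 and rme-1 and the rise of sgk-1 did not pass, and rme-1 did not pass without ZK795.1 replicate 2 (adjusted p = 0.0563).

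Transcripts that oocytes load into the egg were lower by small amounts. Of 32 tested genes of oocytes, the eggshell and the early embryo, 16 fell and 0 rose, with a median of -0.14 beside 0.00 over all genes. The maternal RNA-binding protein gene mex-5 had 969 ± 44.4 CPM in the M04C9.5-labelled libraries and 1253 ± 51.2 CPM in ZK795.1 (-0.37 ± 0.06). mex-3 had -0.35 ± 0.06, the eggshell proteoglycan gene cpg-1 -0.37 ± 0.07, and the eggshell barrier genes perm-2 and perm-4 -0.34 ± 0.06 and -0.32 ± 0.07. The maternal factor gene skn-1 had -0.27 ± 0.05. In the model with lane added, 6 of the list fell, perm-2 and perm-4 not among them, and with library totals 12 fell and 4 rose.

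P granules are RNA-rich bodies of germ cells, and 9 of 14 tested genes of P granules and germline identity fell (median -0.23), while 0 rose. meg-2 (-0.39 ± 0.05), meg-1 (-0.37 ± 0.06), pgl-3 (-0.28 ± 0.06) and car-1 (-0.31 ± 0.07) are examples. Genes of germline proliferation and meiosis moved less, with 10 of 43 lower and 2 higher (median -0.04). sygl-1, a target of the Notch signal that keeps germ cells dividing, had -0.34 ± 0.05, and the translational repressor gene gld-1 had -0.26 ± 0.06. This balance turned over with library totals, where 9 rose and 2 fell, and 3 fell with lane as a term. The falls numbered 6 without M04C9.5 replicate 1 and 3 without ZK795.1 replicate 1.

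Sperm transcripts depended on single libraries, ZK795.1 replicate 3 among them. Of 30 tested major sperm protein genes, near-identical copies that may share reads, 1 fell, with a median of -0.83. Their summed level was 5.02, 4.31 and 18.0 CPM in the M04C9.5-labelled libraries, against 23.2, 25.0 and 4.06 CPM in ZK795.1. In L4440 it was 6.55, 7.05 and 2.02 CPM. Replicates 1 and 2 of ZK795.1 were the highest and M04C9.5 replicate 3 came next. ZK795.1 replicate 3 was the lowest of the 6 libraries of the contrast, so the groups overlapped. Replicate 3 thus stood apart within its group under both labels. Without ZK795.1 replicate 3, 8 fell (median -1.23). Of 38 other sperm genes 4 fell, and 9 without that replicate. spe-15, a myosin gene of spermatids, had -0.31 ± 0.07, and swm-1, a secreted inhibitor of sperm activation, -0.40 ± 0.08, which did not pass with lane as a term.

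Among developmental transcription factors, many of which act in embryos, rises outnumbered falls in the M04C9.5-labelled libraries, and most members did not pass the threshold. The lists of this and the following paragraph that name homeobox genes, other developmental factors, sdz genes, F-box and MATH domain genes and the apical matrix were drawn up after these values had been seen, so their counts describe these data only. Of 76 tested homeobox genes, 19 rose (25%) and 5 fell, with a median of 0.23. unc-39, a homologue of sine oculis of the fly, had 9.83, 12.0 and 11.1 CPM in the M04C9.5-labelled libraries, against 3.93, 3.87 and 4.37 CPM in ZK795.1 and 3.44, 3.03 and 2.57 CPM in L4440 (1.43 ± 0.11, adjusted p = 9.19e-12). The M04C9.5-labelled libraries did not overlap with the others. The engrailed homologue ceh-16 (1.37 ± 0.15), the neuronal POU gene unc-86 (1.68 ± 0.20) and the Pax6 homologue vab-3 (0.93 ± 0.13) rose too.

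Of 65 other developmental transcription factor genes, 21 rose and 5 fell. The proneural bHLH genes, which start neuronal fates, were among the rises. hlh-14 had 3.19, 4.08 and 3.85 CPM in the M04C9.5-labelled libraries, against 0.907, 0.691 and 1.15 CPM in ZK795.1 (1.99 ± 0.18), ngn-1 had 1.20 ± 0.15 and lin-32 1.87 ± 0.26. The T-box gene tbx-8 (0.93 ± 0.12) and elt-1 (0.44 ± 0.07), which specifies epidermis in the embryo, rose. Once lane was added to the model, the rises numbered 11 of the homeobox genes and 11 of the other factors, elt-1 not among them. The few falls depended on single libraries. In the homeobox list they were 3 without M04C9.5 replicate 1 or 2 or ZK795.1 replicate 3 and 2 without ZK795.1 replicate 1. Among the other factors they were 3 without M04C9.5 replicate 1 or ZK795.1 replicate 3 and 2 without M04C9.5 replicate 2.

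The sdz genes are transcribed in the early embryo downstream of the maternal factor SKN-1, and 10 of 27 tested rose while 1 fell. sdz-5 (1.18 ± 0.16), sdz-14 (0.70 ± 0.11) and sdz-31 (1.22 ± 0.21) were among the rises. The count was 2 with lane as a term, without sdz-14 and sdz-31, and 6 in a fit of all 30 libraries. The large worm families of F-box and MATH domain genes, many of which act in protein ubiquitination, had 113 of 324 tested members higher (34.9%) and 7 lower, with a median of 0.30. fbxb-66 had 10.6, 12.6 and 11.5 CPM in the M04C9.5-labelled libraries, against 5.34, 3.69 and 5.90 CPM in ZK795.1 (1.20 ± 0.13). fbxc-25 (1.17 ± 0.12), fbxb-1 (1.29 ± 0.16) and bath-10 (1.08 ± 0.13) moved with it. With lane as a term 35 of these genes were higher and 2 lower. The falls numbered 2 without M04C9.5 replicate 2, 4 without M04C9.5 replicate 3 or ZK795.1 replicate 1 and 3 without ZK795.1 replicate 3.

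Linker histones bind the DNA between nucleosomes, and 4 of 8 tested hil genes rose. hil-3 had 32.9, 40.0 and 37.2 CPM in the M04C9.5-labelled libraries, against 13.5, 11.6 and 17.2 CPM in ZK795.1 and 12.7, 14.1 and 10.3 CPM in L4440 (1.37 ± 0.15). hil-7 (1.67 ± 0.13), hil-2 (0.86 ± 0.13) and hil-6 (0.88 ± 0.13) rose. hil-4 was lower (-0.19 ± 0.05), but not past the threshold without ZK795.1 replicate 1 or 3 (adjusted p = 0.0535 and 0.056). his-24, a linker histone gene despite its name, had 1.03 ± 0.15, and the histone H3.3 gene his-71 had 0.56 ± 0.08. Of the 29 genes with a his name, 5 rose and 3 fell, and near-identical copies may share reads. Selection of polyadenylated RNA leaves out histone transcripts without a poly(A) tail.

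The cuticle is the collagen-rich outer coat of the worm, and the genes for it moved in 2 directions. Of 6 tested collagens of the annular furrows, 4 rose, namely dpy-7 (1.29 ± 0.28), dpy-2 (1.22 ± 0.27), dpy-3 (1.18 ± 0.41) and dpy-10 (0.49 ± 0.10). In the model with lane added, 2 of these passed, dpy-7 among them, and in a fit of all 30 libraries 1. dpy-3 was lost without M04C9.5 replicate 1, 2 or 3 (adjusted p = 0.063, 0.0581 and 0.0811) and without ZK795.1 replicate 1 or 2 (adjusted p = 0.0545 and 0.105). Of 19 other cuticle genes, most of them named by phenotype, 8 rose and 0 fell. The rises included noah-1 and noah-2, which are counted again in the apical matrix list below. dpy-14, a collagen gene, had 17.2, 20.7 and 17.0 CPM in the M04C9.5-labelled libraries, against 5.72, 5.49 and 6.62 CPM in ZK795.1 and 4.89, 5.85 and 3.71 CPM in L4440 (1.62 ± 0.15). The M04C9.5-labelled libraries were the high ones. sqt-3 (1.25 ± 0.13), dpy-17 (1.01 ± 0.10) and the moulting gene mlt-11 (0.90 ± 0.13) rose as well.

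The apical extracellular matrix covers the embryo before the cuticle forms. Of 48 tested genes of this matrix, 21 rose (43.8%) and 2 fell, with a median of 0.42. fbn-1, a fibrillin-related gene, had 18.1, 18.6 and 17.2 CPM in the M04C9.5-labelled libraries, against 8.19, 6.85 and 7.59 CPM in ZK795.1 and 6.78, 6.12 and 4.05 CPM in L4440 (1.25 ± 0.11). noah-1 (0.91 ± 0.10) and noah-2 (0.92 ± 0.10), which encode zona pellucida domain proteins of the embryonic sheath, rose, as did the leucine-rich repeat gene sym-1 (1.00 ± 0.10), the lipocalin gene lpr-3 (1.13 ± 0.14) and the cuticlin-like gene cutl-16 (1.36 ± 0.13). The falls, named after their values had been seen, were egg-6 (-0.28 ± 0.06) and cut-6 (-1.09 ± 0.19).

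Among the numbered col genes falls outnumbered rises, and most members did not pass the threshold. Of 110 tested, 30 fell (27.3%) and 8 rose, and their summed level was 1239, 1185 and 1186 CPM in the M04C9.5-labelled libraries, against 2499, 2646 and 2238 CPM in ZK795.1 and 1833, 1837 and 1851 CPM in L4440. The M04C9.5-labelled libraries were lowest and the ZK795.1 libraries highest, with no overlap. col-122 had 118, 110.2 and 115 CPM, against 243, 247 and 228 CPM in ZK795.1 and 176, 181 and 189 CPM in L4440. col-106 (-0.97 ± 0.06), col-184 (-0.99 ± 0.06), col-103 (-1.37 ± 0.08) and col-98 (-1.57 ± 0.09) fell. The list median was -0.17, and it was 0.08 without ZK795.1 replicate 1, although 27 genes fell in that fit. In the fit of all 30 libraries 18 fell. Among 64 hedgehog-related and patched-related genes, many of them epidermal, 13 rose, such as wrt-10 (1.36 ± 0.12), and 16 fell, such as grd-5 (-1.15 ± 0.08). Once lane was added to the model, these were 6 and 9.

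**Figure D4:**
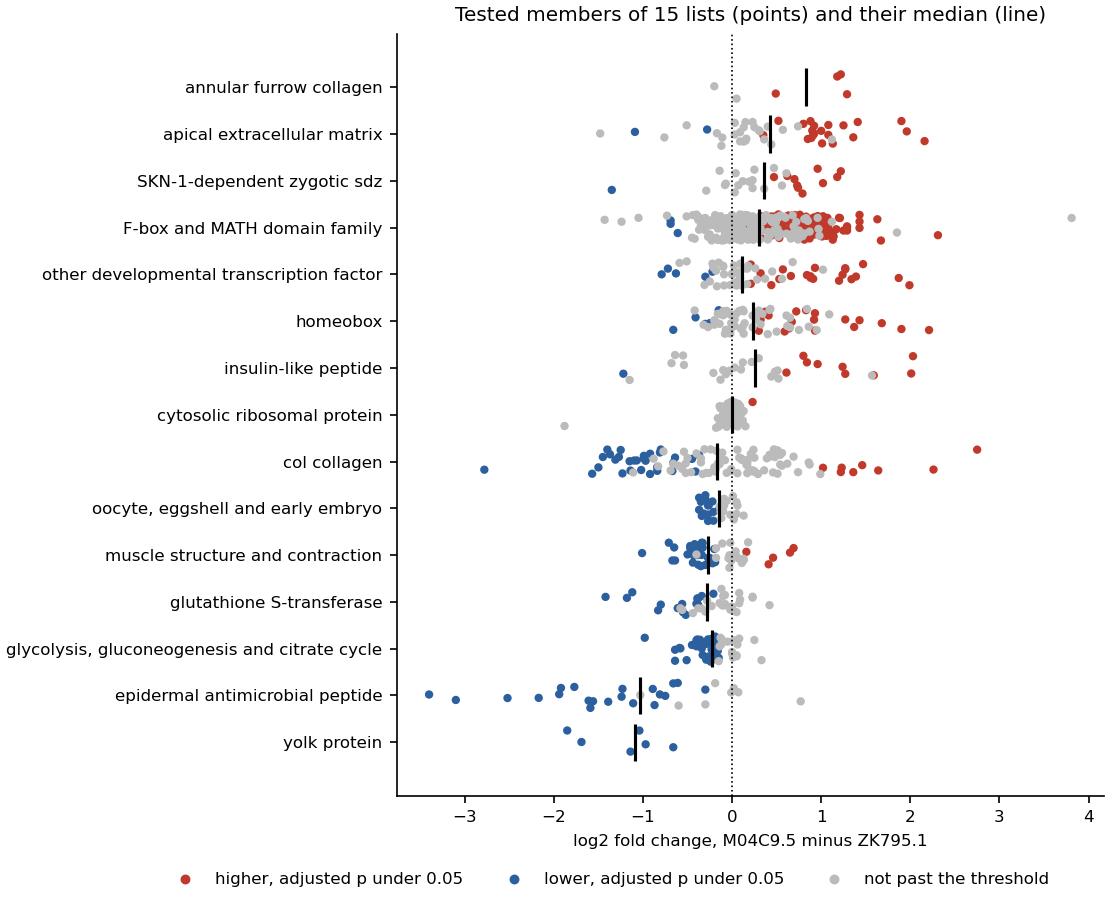
Log2 fold change (x axis, M04C9.5-labelled minus ZK795.1) of each tested member of 15 gene lists, with red points higher, blue points lower and grey points not past the threshold; the vertical line is the list median. The annular furrow, apical matrix and sdz lists lie to the right, and the yolk and antimicrobial peptide lists, with medians of -1.09 and -1.03, to the left. The apical matrix and sdz lists were drawn up after these values had been seen, so their position is no independent evidence.

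Epidermal antimicrobial peptides are small secreted peptides that the worm skin makes on fungal infection and injury. Of 29 tested, 21 fell (72.4%) and 0 rose, with a median of -1.03. The caenacin gene cnc-4 had 8.34, 10.1 and 8.63 CPM in the M04C9.5-labelled libraries, against 35.4, 41.1 and 45.6 CPM in ZK795.1 and 32.4 ± 0.395 CPM in L4440 (-2.17 ± 0.10). nlp-29, a common reporter of this response, had 4.08, 4.94 and 4.66 CPM, against 15.3, 13.3 and 18.0 CPM in ZK795.1 and 13.2, 13.5 and 13.0 CPM in L4440 (-1.77 ± 0.11). Both were low in all 3 M04C9.5-labelled libraries. nlp-31 (-1.23 ± 0.09), nlp-34 (-1.59 ± 0.11) and fip-6 (-1.94 ± 0.13) fell with them. Clustered members of these families are alike in sequence and may share reads.

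Genes of intestinal immunity moved in both directions. Of 128 tested C-type lectin genes, 36 rose (28.1%) and 21 fell. clec-7 (1.54 ± 0.10) rose, and clec-1 (-0.85 ± 0.06), clec-146 (-1.07 ± 0.07) and clec-186 (-0.78 ± 0.05) fell. Of 13 lysozyme genes 6 rose and 3 fell, the falls including lys-2 (-0.78 ± 0.08) and lys-8 (-0.40 ± 0.06). In the saposin-like family 12 of 23 fell and 4 rose, with spp-17 at -1.15 ± 0.07 and spp-8 at 0.65 ± 0.06. Of 32 other genes known from responses to pathogens, 10 fell and 5 rose (median -0.06), and with library totals 7 fell and 9 rose. The rises numbered 3 without M04C9.5 replicate 2 or ZK795.1 replicate 2 and 2 without M04C9.5 replicate 3, and 2 with lane as a term. Among the falls were dod-17 (-1.04 ± 0.11), asp-14 (-0.66 ± 0.07), cld-9 (-0.66 ± 0.08) and sysm-1 (-1.07 ± 0.11). Of the rises, tir-1, the adaptor gene upstream of the p38 MAP kinase pathway, had 30.0, 33.8 and 29.1 CPM in the M04C9.5-labelled libraries, against 16.8, 16.4 and 17.4 CPM in ZK795.1 (0.88 ± 0.06), and the thaumatin-like gene thn-1 had 1.58 ± 0.13. With lane as a term 20 C-type lectin genes rose and 7 saposin-like genes fell.

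Lysosomal proteases and galectins fell more often than they rose. Of 20 cathepsin B-like and aspartic protease genes, 11 fell and 3 rose (median -0.40). asp-13 had -0.89 ± 0.06, cpr-9 -0.88 ± 0.06 and asp-4 -0.72 ± 0.06, while cpr-1 rose to 899.9, 833 and 843 CPM in the M04C9.5-labelled libraries, against 448, 408 and 470.3 CPM in ZK795.1 (0.96 ± 0.07). Galectins bind galactose-containing sugars. Of 12 tested galectin genes, 1 rose, lec-2 described above, and 8 fell, including lec-6 (-0.92 ± 0.06), lec-9 (-0.59 ± 0.06) and lec-4 (-0.43 ± 0.06), and 5 fell with lane as a term.

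Transcripts of central carbon metabolism were lower in most of the list. Of 55 genes of glycolysis, gluconeogenesis and the citrate cycle, 39 fell (70.9%) and 0 rose, with a median of -0.22. icl-1, the bifunctional glyoxylate cycle enzyme that lets worms turn fat into sugar, had 125, 121 and 130.3 CPM in the M04C9.5-labelled libraries, against 265, 229.9 and 248 CPM in ZK795.1 and 202, 189 and 196 CPM in L4440 (-0.98 ± 0.05). The 3 groups did not overlap. The phosphoenolpyruvate carboxykinase genes pck-1 (-0.64 ± 0.05) and pck-2 (-0.51 ± 0.05), the pyruvate carboxylase gene pyc-1 (-0.45 ± 0.06) and the glyceraldehyde-3-phosphate dehydrogenase genes gpd-2 (-0.64 ± 0.06) and gpd-3 (-0.59 ± 0.05) fell. In the model with lane added, 18 fell, and with library totals 26 fell and 4 rose.

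Fat metabolism followed a mixed course. Of 63 fatty acid oxidation genes, 23 fell and 3 rose. acdh-1, an acyl-CoA dehydrogenase gene of the propionate shunt, had 114, 105 and 116 CPM in the M04C9.5-labelled libraries, against 342, 406 and 349 CPM in ZK795.1 and 250.3, 254 and 286 CPM in L4440 (-1.71 ± 0.10). acs-1 (-0.56 ± 0.05), acox-1.4 (-0.77 ± 0.08), acox-1.5 (-0.65 ± 0.06) and ech-6 (-0.43 ± 0.05) were lower, and acs-14 (0.36 ± 0.06) was higher, though not with lane as a term. The counts were 12 lower with lane as a term, and 15 lower and 9 higher with library totals. Without ZK795.1 replicate 3, 6 rose. Of 16 desaturase and elongase genes, 3 fell and 2 rose (median -0.09). The delta-9 desaturase genes fat-7 (-1.04 ± 0.06) and fat-5 (-0.89 ± 0.06) fell while the delta-6 gene fat-3 (0.64 ± 0.06) rose. The delta-9 gene fat-6, at 400 ± 18.1 CPM in the M04C9.5-labelled libraries and 443 ± 50.9 CPM in ZK795.1, did not pass (-0.15 ± 0.06, adjusted p = 0.0915).

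Of 25 lipid-binding and storage genes, 10 fell and 2 rose. far-3, a fatty acid and retinol binding protein gene, fell to 132, 154 and 144 CPM in the M04C9.5-labelled libraries, against 538, 466 and 575 CPM in ZK795.1 and 474, 455 and 402 CPM in L4440 (-1.87 ± 0.13). lbp-8, which carries lipid signals from the lysosome, averaged 2.23 ± 0.304 CPM in the M04C9.5-labelled libraries and 8.95 ± 0.403 CPM in ZK795.1 (adjusted p = 4.68e-12), the triglyceride synthesis gene dgat-2 had -1.07 ± 0.11 and the lipid droplet gene dhs-3 -0.56 ± 0.06, while far-7 rose (1.43 ± 0.12). Among 7 lysosomal lipase genes 4 rose, with lipl-2 at 0.58 ± 0.10 and lipl-3 at 1.02 ± 0.20 after lipl-1, and 2 fell, lipl-4 (-0.96 ± 0.20) and lipl-5 (-0.27 ± 0.06). For lipl-5 ZK795.1 was the high group at 521 ± 40.8 CPM. The M04C9.5-labelled libraries (432 ± 33.8 CPM) overlapped L4440 (443 ± 18.8 CPM). lipl-3 did not pass with lane as a term, nor did lipl-2 and lipl-5 in the fit of all 30 libraries. In the list of lipid binding 6 fell with lane as a term.

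Enzymes that process foreign compounds fell more often than they rose. Of 41 glutathione S-transferase genes, 15 fell (36.6%) and 0 rose. gst-4, a widely used target of the stress factor SKN-1, had 6.12, 6.11 and 7.06 CPM in the M04C9.5-labelled libraries, against 16.4, 17.1 and 18.0 CPM in ZK795.1 and 12.8, 13.4 and 13.2 CPM in L4440 (-1.42 ± 0.09), and gst-13 had -0.83 ± 0.07. Of 66 cytochrome P450 genes 23 fell, such as cyp-34A8 (-0.95 ± 0.08), and 10 rose, such as cyp-37B1 (1.24 ± 0.10). Of 60 UDP-glucuronosyltransferase genes 18 fell, such as ugt-22 (-1.02 ± 0.06), and 8 rose, such as ugt-32 (1.95 ± 0.19). Once lane was added to the model, the falls numbered 6, 15 and 13 in these families. In contrast to fmo-2, the flavin monooxygenase gene fmo-3 fell (-1.05 ± 0.07).

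DAF-16 is the transcription factor that insulin signalling holds back. Of 34 tested genes known to be raised by it, 17 fell and 5 rose (median -0.27). The falls icl-1, pck-1, gpd-2, fat-7, fat-5 and lys-8 are also counted in lists above. The ferritin gene ftn-1 fell to 18.3, 16.2 and 18.6 CPM in the M04C9.5-labelled libraries, against 55.1, 43.8 and 59.1 CPM in ZK795.1 and 36.0, 34.3 and 31.4 CPM in L4440 (-1.58 ± 0.09), with the 3 groups apart. lea-1, a gene of desiccation tolerance, had -0.77 ± 0.06. Among the 5 rises were lys-7 (0.89 ± 0.06) and the small heat shock gene hsp-12.6 (1.35 ± 0.19). The other 12 genes of the list did not pass the threshold. The rises numbered 3 without M04C9.5 replicate 1 or ZK795.1 replicate 1. Insulin-like peptides are the ligands of this pathway, and 9 of 30 tested rose while 1, ins-29 (-1.22 ± 0.25), fell. ins-2 had 4.92, 6.32 and 6.23 CPM in the M04C9.5-labelled libraries, against 1.41, 1.23 and 1.67 CPM in ZK795.1 and 2.01, 1.32 and 0.738 CPM in L4440 (2.01 ± 0.21). ins-34 (0.80 ± 0.12), ins-22 (0.96 ± 0.16) and ins-23 (2.03 ± 0.28) rose. With lane as a term 5 of these genes rose. Of 25 genes of insulin and TOR signalling 8 fell and 1 rose, against 2 and 4 with library totals and 1 and 0 with lane as a term. The insulin receptor gene daf-2 (-0.31 ± 0.05) was among the falls, which numbered 3 without M04C9.5 replicate 1 or ZK795.1 replicate 1, 4 without M04C9.5 replicate 2 and 5 without ZK795.1 replicate 2.

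Muscle transcripts were lower in most cases. Of 49 tested genes of muscle structure and contraction, 28 fell (57.1%) and 5 rose. The troponin T gene tnt-2 had 25.8, 29.0 and 28.9 CPM in the M04C9.5-labelled libraries, against 51.8, 61.5 and 55.4 CPM in ZK795.1 and 44.5, 45.0 and 46.8 CPM in L4440 (-1.01 ± 0.07). The paramyosin gene unc-15 (-0.65 ± 0.07), the tropomyosin gene lev-11 (-0.47 ± 0.05), the troponin C gene pat-10 (-0.46 ± 0.06) and the calponin-like gene clik-1 (-0.71 ± 0.06) fell. myo-1, a myosin heavy chain of the pharynx, rose instead, averaging 16.1 ± 0.31 CPM in the M04C9.5-labelled libraries and 10.3 ± 1.68 CPM in ZK795.1 (0.65 ± 0.09). In the model with lane added, 13 genes of the list fell, and in the fit of all 30 libraries 13.

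Because DYF-5 acts in cilia, the genes of ciliated neurons were read as a group. Of 77 tested, 10 rose (13%) and 4 fell, beside 11.3% and 13.3% of all genes. Once lane was added to the model, 4 rose, and with library totals 20. dyf-7, whose protein anchors the tips of sensory dendrites in the embryo, had 2.75, 2.57 and 2.93 CPM in the M04C9.5-labelled libraries, against 0.958, 0.991 and 1.10 CPM in ZK795.1 (1.42 ± 0.16). The kinesin-II gene klp-11 (0.87 ± 0.11), the transition zone gene nphp-4 (1.08 ± 0.19) and the intraflagellar transport genes osm-1 (0.41 ± 0.09) and dyf-1 (0.81 ± 0.18) rose, osm-1 not with lane as a term, and the ciliary rootlet gene che-10 fell (-0.48 ± 0.07). tbb-4, a beta-tubulin gene of sensory cilia, had 10.5, 12.4 and 12.5 CPM, against 4.28, 2.61 and 4.04 CPM in ZK795.1 and 3.59, 2.79 and 2.31 CPM in L4440 (1.68 ± 0.13). It was the largest rise of 33 neuronal genes, of which 3 rose and 1 fell. Of 100 neuropeptide genes 7 rose and 9 fell, and nlp-29, nlp-31, nlp-34, nlp-27 (-0.75 ± 0.10) and nlp-33 (-0.61 ± 0.10) among the falls are the epidermal peptides counted above. Without M04C9.5 replicate 1, 3 neuropeptide genes rose, and with lane as a term 2 rose and 4 fell.

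The lists drawn up around the 2 named kinases moved little as groups. Of 40 genes of MAP kinases, RCK kinases and related kinases, 7 rose and 6 fell (median 0.01). dyf-5 led the rises, and mak-1 (-0.34 ± 0.06) and lit-1 (-0.26 ± 0.05) were falls of small size. The rises numbered 4 without M04C9.5 replicate 1 or 3 or ZK795.1 replicate 1, 2 without M04C9.5 replicate 2 and 3 without ZK795.1 replicate 2. With lane as a term dyf-5 was the only rise, and mak-1 did not pass. The list of inositol phosphate and phosphoinositide genes also held genes of calcium and other signalling. Of its 40 genes, 5 rose and 7 fell, and with library totals 10 rose and 0 fell. The rises unc-2 (0.44 ± 0.09) and unc-73 (0.18 ± 0.05) and the fall unc-43 (-0.21 ± 0.05) are such signalling genes, so the counts do not describe this metabolism alone. Beside ipmk-1, the phosphatidylinositol 3-kinase gene vps-34 rose (0.30 ± 0.05), and the phosphatidylinositol phosphate kinase gene ppk-3 fell (-0.23 ± 0.05), and neither passed with lane as a term. The rises of this list numbered 3 without M04C9.5 replicate 2 or 3, and the falls 4 without M04C9.5 replicate 1 or ZK795.1 replicate 1.

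Genes of protein synthesis, protein turnover and respiration moved by small amounts, and their counts changed with the scaling or with single libraries. Of 76 cytosolic ribosomal protein genes 1 rose and 0 fell, but with library totals 23 rose, and 7 fell without ZK795.1 replicate 2. Of 65 mitochondrial ribosomal protein genes 10 rose, but 5 without ZK795.1 replicate 2 and 33 without ZK795.1 replicate 3. Nuclear genes of oxidative phosphorylation had 13 of 65 lower, such as the ATP synthase gene atp-1 (-0.34 ± 0.06), and 0 higher. Library totals gave 15 higher and 4 lower, the falls numbered 7 without ZK795.1 replicate 1, and the rises 5 without ZK795.1 replicate 3. Of the 12 protein-coding genes that mitochondrial DNA itself carries, 7 fell, but 3 without M04C9.5 replicate 2 and 1 without ZK795.1 replicate 3. This mitochondrial list was drawn up after the values had been seen. Of 33 proteasome genes 7 fell, but 4 without ZK795.1 replicate 1.

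Other families gave further named differences. Transthyretin-related genes encode small secreted proteins, and 26 of 56 fell while 7 rose, with ttr-18 at -1.24 ± 0.07 and ttr-59 at -0.95 ± 0.09. This list was drawn up after the values had been seen, and with lane as a term 14 fell. Of 197 nuclear hormone receptor genes 27 rose, including nhr-25 (0.80 ± 0.13), a regulator of epidermal development and moulting, and 7 fell, including nhr-114 (-0.54 ± 0.08). The falls numbered 4 without ZK795.1 replicate 1, 2 or 3, and with lane as a term 8 rose. Of 80 genes of intestinal transport and digestion 17 rose and 17 fell. The aquaporin genes aqp-2 (1.15 ± 0.07) and aqp-8 (1.09 ± 0.11) were rises, and the P-glycoprotein gene pgp-1 (-0.97 ± 0.07) and the acid phosphatase gene acp-6 (-1.04 ± 0.06) were falls. In the model with lane added, 6 of these rose and 9 fell. hrg-7, which encodes a secreted aspartic protease of haem signalling, had 31.9, 33.3 and 31.2 CPM in the M04C9.5-labelled libraries, against 58.7, 52.9 and 65.3 CPM in ZK795.1 and 103, 93.6 and 79.7 CPM in L4440, so both RNAi labels lay below the vector libraries (-0.88 ± 0.09 between them).

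**Figure D5:**
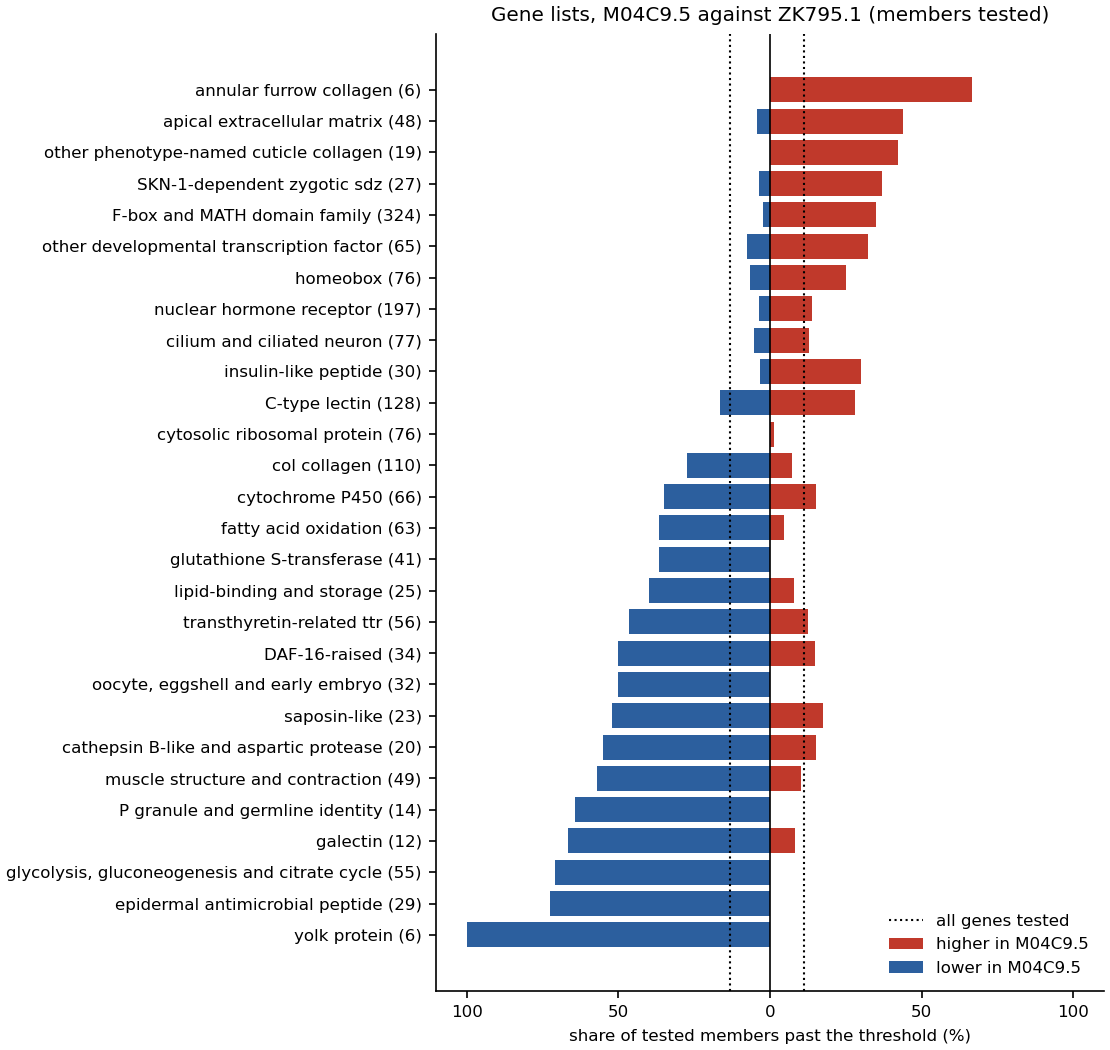
Share of tested members past the threshold (x axis, %), higher in the M04C9.5-labelled libraries to the right in red and lower to the left in blue, for 28 gene lists with the number of tested members in brackets. Dotted lines mark the shares over all 16495 genes, 11.3% higher and 13.3% lower; the yolk list reaches 100% on the left.

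In some genes it was the ZK795.1 libraries that stood apart, with the M04C9.5-labelled libraries closer to L4440. lys-10, a lysozyme gene, had 7.38, 8.32 and 8.31 CPM in the M04C9.5-labelled libraries, against 1.59, 1.77 and 1.86 CPM in ZK795.1 and 5.96, 6.42 and 6.64 CPM in L4440. The ZK795.1 libraries were low, and the direct difference was 2.20 ± 0.12 (adjusted p = 3.51e-15). Set against L4440, which both comparisons share, lys-10 had 0.34 ± 0.10 (adjusted p = 0.0117) in the M04C9.5-labelled libraries and -1.86 ± 0.12 (adjusted p = 3.04e-12) in ZK795.1. lys-7, a lysozyme gene that DAF-16 raises, had 2496, 2241 and 2281 CPM, against 1281, 1217 and 1279 CPM in ZK795.1 and 2139, 2022 and 2085 CPM in L4440 (0.89 ± 0.06).

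The insulin-like gene ins-7 had the same order, at 10.8, 10.1 and 11.2 CPM in the M04C9.5-labelled libraries, against 4.08, 4.56 and 4.63 CPM in ZK795.1 and 8.64, 8.22 and 8.50 CPM in L4440 (1.27 ± 0.09). For the C-type lectin gene clec-5 the levels were 12.6, 12.3 and 13.2 CPM, against 3.55, 3.27 and 3.88 CPM in ZK795.1 and 10.1, 8.52 and 7.57 CPM in L4440 (1.82 ± 0.11). pept-1, the oligopeptide transporter of the intestine, was split 3 ways, with 37.4, 34.9 and 33.5 CPM in the M04C9.5-labelled libraries, 13.9, 15.1 and 14.4 CPM in ZK795.1 and 22.0, 21.6 and 22.6 CPM in L4440 (1.29 ± 0.07). The cystathionine gamma-lyase genes parted, since cth-1 was higher in the M04C9.5-labelled libraries (0.64 ± 0.05) and cth-2 lower (-0.71 ± 0.05). cth-1 had 124, 123 and 126 CPM, against 74.2, 81.0 and 83.7 CPM in ZK795.1 and 37.0, 42.1 and 40.5 CPM in L4440, so both labelled groups lay above the vector libraries.

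Defining markers were read to check the label of whole hermaphrodites. No list of markers was at 0 in any group, and every marker was detected. The summed intestinal markers, of which yolk genes are the largest part, ran from 14896 to 18586 CPM in the M04C9.5-labelled libraries, against 29409.6 to 35329 CPM in ZK795.1. Of 10 intestinal markers 3 rose and 5 fell. Body muscle markers ran from 277 to 319.5 CPM, against 414 to 517 CPM, with 3 of 5 lower. Pharynx markers ran from 44.7 to 45.3 CPM, against 30.1 to 35.9 CPM, with 3 of 5 higher. Ciliated neuron markers ran from 7.88 to 8.63 CPM, against 5.34 to 5.94 CPM, with 2 of 8 higher and 1 lower. Oocyte markers ran from 8954 to 9548 CPM, against 10371 to 11452 CPM, with 5 of 7 lower. For general neurons (79.4 to 80.7 CPM, against 75.2 to 84.4 CPM) the groups overlapped, and 0 of 8 markers passed. Male markers were at 3.01 to 3.27 CPM, against 2.64 to 3.03 CPM. The number of embryos held by the animals is not given, and the part of embryos, of the intestine and of body muscle in these results was not tested.

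By chromosome, rises took from 8.15% of the genes tested on chromosome III to 14.4% on chromosome X, and falls from 11.8% on chromosome I to 15.2% on chromosome V. Of 14 mitochondrial genes 8 fell and 0 rose.

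Some of the named calls did not hold in every fit. In the fit of all 30 libraries spe-15, hil-4, dpy-7, dpy-2, dpy-3, mlt-11, lipl-2, lipl-5, lit-1, nhr-114 and cth-1 kept their direction but did not pass, with adjusted p-values from 0.0512 for nhr-114 to 0.393 for hil-4. Once lane was added to the model, nlp-33 (adjusted p = 0.056), dpy-2 (0.0604), dpy-10 (0.0771) and hil-4 (0.118) did not pass.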

How the data were processed

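RNA of whole animals was prepared with a polyadenylated-RNA kit that does not mark strand, per the labels' protocols. The submitters' processing notes name bcl2fastq 1.8.4, STAR 2.4.1d, featureCounts 1.4.6-p4 and the build WBcel235. The authors deposited raw read counts per gene, which were used as they stand, and a table of normalised values was not used.

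Counts of the 15 libraries of the ZK title prefix were fitted in R 4.3.3 with edgeR 4.0.16 after removal of low counts (filterByExpr) and trimmed-mean (TMM) scaling, with 5 group means, a robust quasi-likelihood F test of M04C9.5 minus ZK795.1 and Benjamini-Hochberg adjustment over all 16495 genes tested, at a threshold of 0.05. The SE of a log2 fold change is its size divided by the square root of F. CPM are counts per 1000000 of the TMM-scaled library size and are not corrected for gene length, so levels are compared between libraries and not between genes. Gene positions come from the Ensembl annotation of WBcel235. Read near-identity within gene families was not measured.

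Named are both targets with their neighbours, the 15 largest rises and 15 largest falls among called genes whose groups do not overlap and which average at least 1 CPM, the 10 smallest p-values among the remaining genes of that set, and up to 6 members per gene list with the smallest p. The members and lists were chosen with earlier results of these data known, 54 lists by name or function and 7 after values of this contrast had been seen, so no count over a list is independent evidence. Several genes belong to several lists, so the list counts overlap. The 15 alternatives comprise other scalings, no filter, DESeq2 1.42.0, other sets of libraries, a replicate or lane term, and leaving out each library. On simulated counts of this comparison (14701 genes, 100 of them changed), 84% of 1.5-fold and 98% of 2-fold changes were recovered. Beside these there were 18 false calls. The data themselves gave 4056 calls, so the simulated setting differs from them, and their share of false calls was not measured.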

Additional observations from a re-analysis of the deposited data

How the results depend on the processing

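Every gene called both here and under an alternative had the same direction in both. The number of genes that differed was 4056, and it was 3806 to 5098 with other scalings, other filters, DESeq2, the 6 libraries alone or the replicate block. It was 2692 in a fit of all 30 libraries (1306 lower) and 1541 with flow cell lane as a term (697 higher, 844 lower). With library totals 3877 were higher and 1221 lower. With DESeq2 1468 were higher and 2338 lower. Leaving out 1 library at a time gave 3155 to 4284 genes, 1404 to 2330 higher and 1669 to 1954 lower. The causes of these shifts were not tested. The log2 fold change of dyf-5 ran from 4.16 to 4.78 and that of ipmk-1 from 0.55 to 0.86, both past the threshold in every alternative.

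Of 5308 values for 354 named genes under the alternatives, 5026 kept their call, 280 no longer passed the threshold, 2 newly passed and 0 changed direction. Lane as a term accounted for 93 of the losses, the fit of all 30 libraries for 44 and library totals for 37. The numbers of the libraries within a group are only their order. Deviations of same-numbered M04C9.5-labelled and ZK795.1 libraries correlated at -0.0466, -0.0633 and -0.0582, below some pairs of unequal number. No pairing by number showed in these values, but with 3 libraries per group they cannot exclude it. The replicate block gave 3886 genes, 1788 higher and 2098 lower, of which 3845 were shared.

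With 3 libraries per group and unknown culture origin, small changes at low counts are the least certain. Lanes and groups are not crossed, and the lane term rests on few libraries per lane. M04C9.5 replicate 2, alone on lane 4, adds nothing to the contrast in that fit.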

Other observations

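Genes of gene regulation by small RNAs and of RNA splicing moved little. Of 51 tested genes of the small RNA pathways, which silence transposons and foreign sequence in worms, 9 fell and 2 rose (median -0.02), and of 58 spliceosome and SR protein genes 7 fell and 3 rose (median 0.01). These shares are set beside 13.3% lower and 11.3% higher over all genes.

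Counts of stress response and related lists are likewise set beside 13.3% lower and 11.3% higher over all genes. Of 22 tested genes of the endoplasmic reticulum stress response 3 fell (13.6%) and 2 rose (9.09%), close to those shares. Of 15 cytosolic heat shock genes 4 fell (26.7%) and 2 rose (13.3%). Of 31 antioxidant and metal response genes 7 fell (22.6%) and 4 rose (12.9%). Of 53 genes of autophagy and the vacuolar ATPase, the lysosomal proton pump, 7 fell (13.2%) and 4 rose (7.55%), with a median of 0.00. In the methionine and folate cycles 7 of 28 genes fell (25%) and 4 rose (14.3%). The pals family, several members of which are raised by microsporidia and viruses, had 1 of 25 higher (4%) and 2 lower (8%).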
